A study of Homo sapiens with 9 samples.

Results

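The E2F transcription factors and RB proteins comprise 10 genes on this array, E2F1 to E2F8, RB1 and RBL1, and were taken as every non-control probe that the array files assign to one of these gene names. They were read by 15 of the 50599 probes, and the 10 genes were among 36337 gene names. E2F3, E2F7 and RBL1 had 2 probes each, E2F6 had 3, and the other 6 genes had 1 each. Every one of the 15 passed the filter on dim probes, which asked for a signal above background on each array of 1 or more groups, and so they were among the 23726 probes tested across the siRNA arrays and the 27171 tested once the 5-aza-dC array was added.

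RKO is an established human colorectal cancer cell line. It received either a control siRNA (siCONT) or an siRNA against UHRF1 (siUHRF1), a protein that reads hemimethylated DNA and maintains DNA methylation, for 72 hours. The cells were then exposed for 24 hours either to ethanol as mock (siCONT and siUHRF1) or to 300 nM trichostatin A (TSA), an inhibitor of histone deacetylases (siCONT + TSA and siUHRF1 + TSA). Each of these 4 groups had 2 one-colour microarrays, and in both siUHRF1 groups replicate 1 was transfected with siUHRF1-1 and replicate 2 with siUHRF1-2, which are different siRNAs, so the spread within these groups holds the difference between siRNAs. A ninth array measured cells given 1 µM 5-aza-2′-deoxycytidine (5-aza-dC), an inhibitor of DNA methyltransferases, for 72 hours with no siRNA named. The sources used here do not say whether replicates came from separate cultures, so p-values measure the spread between these arrays, which may be technical.

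E2F proteins bind promoters of genes needed for DNA replication and the cell cycle, most of them as dimers with a DP protein. E2F1, E2F2 and E2F3 are known mainly as activators at the entry into S phase, E2F4 and E2F5 as repressors that act with pocket proteins, E2F6 as a repressor that works without pocket proteins and belongs to a polycomb complex (PRC1.6) that silences germline genes, and E2F7 and E2F8 as atypical repressors that bind DNA without a DP partner. RB1 and RBL1 (p107) are pocket proteins. They hold E2F proteins in check until cyclin-dependent kinases phosphorylate them. Several of these genes, E2F1 and RBL1 among them, are themselves E2F targets.

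The stretches directly upstream of the annotated start are shown for the 4 genes on which the results below turn, with the E2F motifs that lie in them. They are from RefSeq (GRCh38.p14), cover the 200 bases before the start, 5′ to 3′ on the gene's strand, and lie at chr20:33686386-33686585 on the minus strand for E2F1, chr20:37095998-37096197 on the minus strand for RBL1, chr6:20401679-20401878 on the plus strand for E2F3 and chr2:11466162-11466361 on the minus strand for E2F6. Capitals mark matches on either strand to the E2F motif in 1 of 4 spellings. Of 35116 promoter windows of 300 bases, TTCCCGC was found in 6.55%, while TTCGCGC was in 2.24%, the form TTGCCGC was in 2.39% and the form TTGGCGC was in 3.04%.
E2F1: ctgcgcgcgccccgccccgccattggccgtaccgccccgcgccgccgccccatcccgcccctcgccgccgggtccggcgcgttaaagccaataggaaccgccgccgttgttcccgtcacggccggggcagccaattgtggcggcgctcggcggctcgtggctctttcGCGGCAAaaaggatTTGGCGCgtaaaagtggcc
RBL1: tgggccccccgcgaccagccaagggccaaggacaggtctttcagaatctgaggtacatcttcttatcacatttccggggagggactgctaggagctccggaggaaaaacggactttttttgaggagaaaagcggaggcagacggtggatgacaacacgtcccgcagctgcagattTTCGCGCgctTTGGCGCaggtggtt
E2F3: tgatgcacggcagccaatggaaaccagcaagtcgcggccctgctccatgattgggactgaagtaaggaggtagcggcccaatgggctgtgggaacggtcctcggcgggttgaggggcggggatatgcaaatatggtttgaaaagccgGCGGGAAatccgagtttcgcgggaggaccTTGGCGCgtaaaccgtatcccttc
E2F6: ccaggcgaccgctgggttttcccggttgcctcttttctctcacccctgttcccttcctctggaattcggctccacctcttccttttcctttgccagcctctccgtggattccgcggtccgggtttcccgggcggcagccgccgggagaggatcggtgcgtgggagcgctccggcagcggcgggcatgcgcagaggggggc
E2F1, RBL1 and E2F3 each held 2 matches within 60 bases of the start. A second E2F3 window, for a start 1735 bases from the gene start, held 0 matches. E2F6 held none upstream and 1 just downstream of its start, at position 15. Among the remaining members with a window at the gene start, E2F7 held 2 matches, E2F2 held 1 and E2F4 held none, against 13.0% of all windows with at least 1. E2F5, E2F8 and RB1 are named only. A match is a description of the letters and not a binding site.

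Values below are log2 signals relative to each array's 75th percentile, so 0 stands for a spot as bright as that percentile and a difference of 1 for a doubling. The UHRF1 probe A_23_P208880 read 2.69 on both siCONT arrays, 0.36 and 0.07 on the siUHRF1 arrays, 2.87 and 2.86 with TSA, and -0.34 and -0.62 with siUHRF1 and TSA. UHRF1 fell by 2.47 without TSA (adjusted p = 0.00238, limma) and fell by 3.35 with it (adjusted p = 0.000132), so the labels of the siRNA groups held for the targeted gene. The 75th percentile itself ranged over the siRNA arrays from 245.3 to 337.9 intensity units and was 821.6 for 5-aza-dC. The 8 siRNA arrays shared 1 slide and 1 scan, with mock arrays in 1 row and TSA arrays in the other, whereas the 5-aza-dC array was on another slide and scan. Each siRNA likewise kept to its own columns of the slide. Treatment and position on the slide therefore cannot be told apart. Of 9 colorectal epithelial marker genes, 3 to 5 were above background on the siRNA arrays, with KRT8, KRT18 and CDX2 on all 9 arrays and CDH1, VIL1 and LGALS4 on none. Their summed level, in multiples of the 75th percentile, was 60.4 and 61.4 in siCONT and 121.7 and 98.0 in siUHRF1 + TSA. Of their 5 probes above background in siCONT, 3 rose with siUHRF1 + TSA against siCONT, beside 15.0% of all probes that rose. Of 6 mesenchymal markers, 2 were above background in every siRNA group except siUHRF1 + TSA, where 5 were, and their summed level on the same scale was between 0.84 and 1.01 without TSA and between 5.78 and 6.39 with it. Of 6 immune and endothelial markers, 3 or 4 were above background on the siRNA arrays, with PECAM1 on none and a summed level between 2.56 and 6.67. In this bulk RNA, fewer cells in a given state and less RNA per cell cannot be told apart.

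E2F3, E2F6 and RBL1 were the members that passed the test when UHRF1 depletion and TSA were combined and compared with siCONT. E2F6, the polycomb-associated repressor, rose on 2 of its 3 probes by up to 1.84-fold. E2F3, an activator, rose 1.54-fold, and RBL1, the p107 pocket protein, fell by 1.75-fold. Of the 15 member probes, 4 passed at an adjusted p below 0.05, 3 of them higher and 1 lower, whereas 23.2% of all probes tested passed, 15.0% higher and 8.24% lower. The share of members that passed was therefore near that of all probes, and the median difference of the 15 was -0.15 against 0.05 over all probes.

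**Figure D1:**
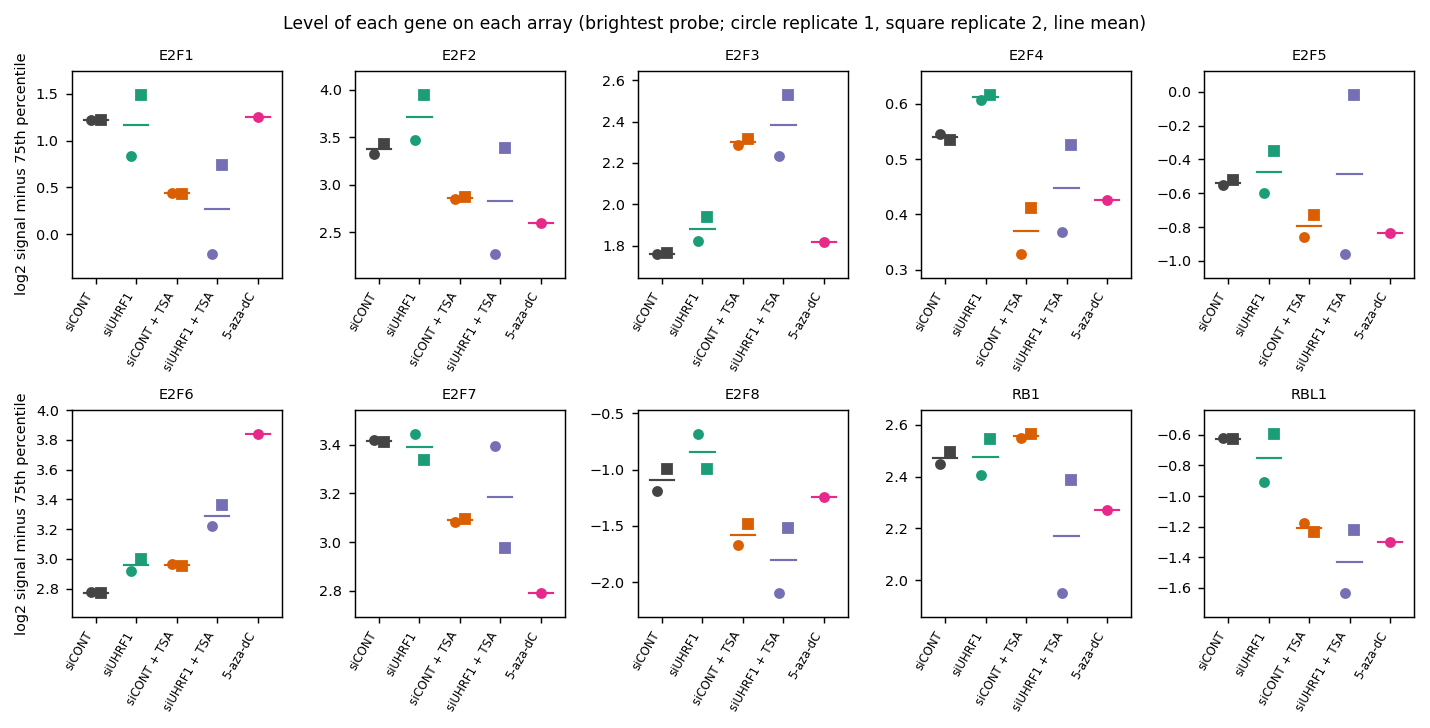
The log2 signal of each member's brightest probe relative to the array's 75th percentile, 1 panel per gene, with a circle for replicate 1, a square for replicate 2 and a line at the mean of each of the 5 groups. E2F3 and E2F6 lie higher and RBL1 lower on both siUHRF1 + TSA arrays than on both siCONT arrays, and E2F1 and E2F2 differ between the siUHRF1 arrays by more than between the siCONT arrays.

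Without TSA, UHRF1 depletion moved no member past the test. None of the 15 probes passed in limma against 0.556% of all probes, 1 had an unadjusted p below 0.05 and 2 did so in the t-test the study's methods name, of which 0 passed after Benjamini-Hochberg adjustment and 0 passed Tukey's test. Intervals were narrow for some members and wide for others. The 95% interval of the log2 difference ran from -0.18 to 0.42 for E2F3 and from -0.37 to 0.38 for RB1, but from -0.87 to 0.77 for E2F1.

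E2F1, the activator most closely tied to S phase entry, was read by 10 replicate spots of 1 probe, A_23_P80032. Its level was 1.22 on both siCONT arrays, 0.84 with siUHRF1-1 and 1.49 with siUHRF1-2. Under TSA it read 0.45 and 0.43 in siCONT + TSA, -0.21 with siUHRF1-1 and 0.74 with siUHRF1-2, and the 5-aza-dC array read 1.25. All 4 TSA arrays were below all 5 others. E2F1 was 0.78 lower in siCONT + TSA (standard error, SE, 0.34, adjusted p = 0.189) and 0.95 lower in siUHRF1 + TSA (SE 0.34, adjusted p = 0.0904) than in siCONT, and neither passed. The siCONT + TSA pair differed by 0.01, and the siUHRF1 pair by 0.65 and the siUHRF1 + TSA pair by 0.95, and all pairs share the SE. With only the 4 arrays of siCONT and siCONT + TSA in the fit, the same difference had an adjusted p of 0.00508 (limma). In that fit 10 of the 15 member probes and 9929 of all 22508 probes passed. With all 8 siRNA arrays in the fit, 1 member probe and 2469 of 23726 probes passed.

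E2F2, also an activator, read 3.32 and 3.43 in siCONT, 3.47 and 3.95 in siUHRF1, 2.85 and 2.88 in siCONT + TSA, 2.27 and 3.39 in siUHRF1 + TSA and 2.60 with 5-aza-dC on probe A_23_P408955. The siCONT + TSA arrays were below both siCONT arrays, while siUHRF1 + TSA spanned them, with siUHRF1-1 the lowest array of the 9. No comparison of E2F2 passed. Its log2 differences from siCONT were -0.51 in siCONT + TSA, -0.55 in siUHRF1 + TSA and -0.78 with 5-aza-dC, with adjusted p between 0.198 and 0.390.

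E2F3 went the other way from E2F1 and E2F2 under TSA. Its brighter probe, A_23_P385034, read 1.76 on both siCONT arrays, 1.82 and 1.94 in siUHRF1, 2.29 and 2.31 in siCONT + TSA, 2.23 and 2.53 in siUHRF1 + TSA and 1.82 with 5-aza-dC. Every TSA array was above every array without TSA. E2F3 rose by 0.54 with TSA alone (SE 0.12, adjusted p = 0.0446), by 0.62 with siUHRF1 + TSA against siCONT (SE 0.12, adjusted p = 0.0167) and by 0.50 with siUHRF1 + TSA against siUHRF1 (adjusted p = 0.0436). It was the 1 member probe that passed for TSA alone, where 6.46% of all probes passed higher and 3.95% lower. These comparisons share arrays and are not independent of each other. The dimmer E2F3 probe, A_33_P3418516, lay between -3.78 and -2.72 on all arrays, with the siCONT arrays themselves 0.67 apart, and passed in no comparison. With TSA alone the E2F3 difference was 0.31 with normexp (adjusted p = 0.244) and 0.35 with spike-in scaling (adjusted p = 0.255), where RBL1 was called instead. Quantile normalisation (adjusted p = 0.0582) and no filter on dim probes also lost that call. The call against siCONT was lost with normexp (limma adjusted p = 0.0626) and spike-in scaling (adjusted p = 0.105). The call against siUHRF1 was lost with both, with quantile normalisation (adjusted p = 0.0553), with no filter and with only the groups compared. The call for TSA alone was lost when any array of siCONT or siCONT + TSA was left out, the call against siCONT when either siCONT array was, and the call against siUHRF1 when any array was except siUHRF1 replicate 2 and siUHRF1 + TSA replicate 1.

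E2F4 and E2F5, the repressors that act with pocket proteins, passed in no comparison. The E2F4 probe A_23_P152218 read 0.55 and 0.53 in siCONT, 0.61 and 0.62 in siUHRF1, 0.33 and 0.41 in siCONT + TSA, 0.37 and 0.52 in siUHRF1 + TSA and 0.43 with 5-aza-dC, the narrowest range of the 15 probes. E2F5, on probe A_23_P31721, read between -0.60 and -0.35 on the 4 mock arrays and -0.86 and -0.73 in siCONT + TSA. Its siUHRF1 + TSA arrays read -0.96 with siUHRF1-1 and -0.02 with siUHRF1-2, the lowest and the highest values of the 9 arrays.

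E2F6 passed in as many comparisons as E2F3 and RBL1, and with the most probes it had the most called values. Its brightest probe, A_23_P170774, read 2.78 and 2.77 in siCONT, 2.92 and 3.0 in siUHRF1, 2.96 and 2.95 in siCONT + TSA, 3.22 and 3.36 in siUHRF1 + TSA and 3.84 with 5-aza-dC. Probe A_32_P12610 read 0.28 and 0.36, 0.77 and 0.37, 0.43 and 0.46, 0.82 and 0.72, and 1.53 in the same order. Probe A_33_P3416301 read -1.87 and -1.89, -1.65 and -1.43, -1.49 and -1.31, -1.08 and -0.92, and -1.11. On all 3 probes the siCONT arrays were the lowest 2 of the 9 and both siUHRF1 + TSA arrays were above both siCONT + TSA arrays, and on the first 2 probes the 5-aza-dC array was the highest.

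Probes A_23_P170774 and A_33_P3416301 of E2F6 rose with siUHRF1 + TSA against siCONT, by 0.52 (SE 0.10, adjusted p = 0.0134) and 0.88 (SE 0.12, adjusted p = 0.00565), and A_32_P12610 was 0.45 higher (SE 0.15, adjusted p = 0.0739). The call of A_33_P3416301 held with each siRNA array left out in turn, with log2 differences between 0.80 and 0.96, but normexp background correction gave 0.49 and lost it (adjusted p = 0.137). The call of A_23_P170774 was lost with normexp (adjusted p = 0.106), with spike-in scaling (0.36, adjusted p = 0.181) and without either siCONT array. Against siUHRF1, siUHRF1 + TSA raised A_33_P3416301 by 0.54 (limma adjusted p = 0.0357). That call was lost with normexp (adjusted p = 0.342), with spike-in scaling (adjusted p = 0.171) and in 7 of 8 fits with 1 array left out. UHRF1 depletion alone gave 0.19, 0.25 and 0.34 on the 3 probes and TSA alone 0.18, 0.13 and 0.48, none of which passed, the lowest adjusted p being 0.0608 for A_33_P3416301 under TSA. The interaction of UHRF1 depletion with TSA (its effect under TSA minus that under mock) was 0.15, 0.07 and 0.06, with 95% intervals from -0.18 to 0.48, -0.43 to 0.58 and -0.36 to 0.48, and none of them passed.

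**Figure D2:**
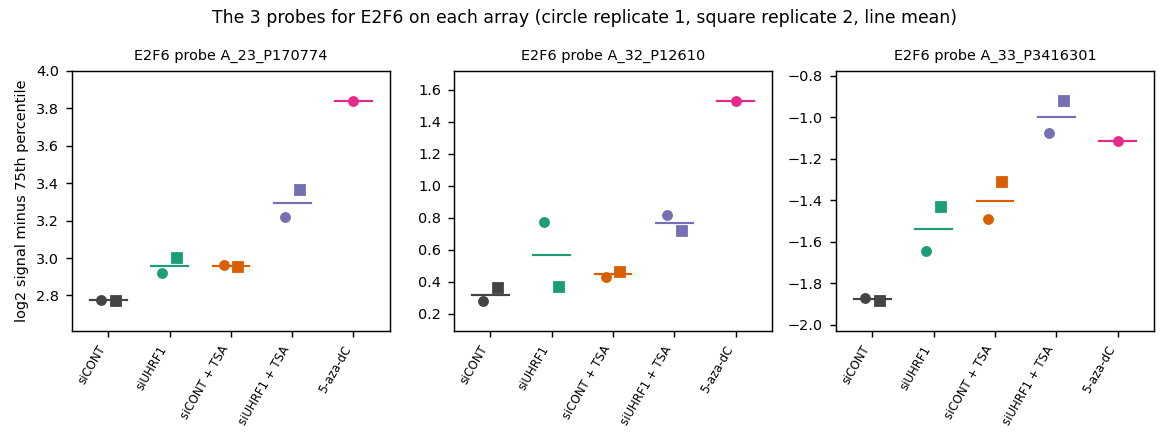
The log2 signal of the 3 E2F6 probes relative to the array's 75th percentile, with a circle for replicate 1, a square for replicate 2 and a line at the mean of each of the 5 groups. On each probe both siUHRF1 + TSA arrays lie above both siCONT arrays, and the single 5-aza-dC array lies above siCONT.

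The 3 E2F6 probes lie at chr2:11585524-11585583, chr2:11586461-11586520 and chr2:11605899-11605958 (hg19, minus strand), the third near the 5′ end of the transcript and the others near its 3′ end. The third probe is shown with the 2 probes of RBL1, since these genes' results rest on more than 1 stretch of the transcript. The RBL1 probes, at chr20:35627197-35627256 and chr20:35635829-35635888 (hg19, minus strand), were designed on different RefSeq transcripts of that gene. All 3 are whole 60-base probes from the array design, with no letter singled out.
E2F6 A_33_P3416301: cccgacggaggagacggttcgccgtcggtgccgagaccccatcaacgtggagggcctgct
RBL1 A_23_P28733: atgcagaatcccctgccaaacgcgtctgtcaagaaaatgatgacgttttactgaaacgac
RBL1 A_24_P276102: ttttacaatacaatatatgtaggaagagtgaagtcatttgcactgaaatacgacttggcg

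Of the atypical repressors, E2F8 passed in 1 siRNA comparison and E2F7 in none. The brighter E2F7 probe, A_32_P210202, read 3.42 and 3.41 in siCONT, 3.44 and 3.34 in siUHRF1, 3.08 and 3.09 in siCONT + TSA, 3.39 and 2.98 in siUHRF1 + TSA and 2.79 with 5-aza-dC. The dimmer E2F7 probe A_33_P3318661 lay between -2.53 and -1.80. E2F8, on probe A_23_P35871, read -1.19 and -0.99, -0.68 and -0.998, -1.67 and -1.49, -2.10 and -1.52, and -1.24 in the same order. All 4 TSA arrays of E2F8 were below all 5 arrays without TSA. E2F8 fell by 0.97 with TSA in UHRF1-depleted cells (SE 0.22, adjusted p = 0.0352), a call that was lost with a block for the siRNA (adjusted p = 0.0602) and that, with 1 array left out, held only without siUHRF1 replicate 2 or siUHRF1 + TSA replicate 2. It was 0.72 lower with siUHRF1 + TSA than with siCONT (SE 0.22, adjusted p = 0.0616) and 0.49 lower with TSA alone (adjusted p = 0.202).

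RBL1 fell where RB1 did not pass. RBL1 probe A_23_P28733 read -0.62 and -0.63 in siCONT, -0.91 and -0.59 in siUHRF1, -1.18 and -1.24 in siCONT + TSA, -1.63 and -1.22 in siUHRF1 + TSA and -1.30 with 5-aza-dC. All TSA arrays and the 5-aza-dC array were below all 4 mock siRNA arrays. RBL1 fell by 0.80 with siUHRF1 + TSA against siCONT (SE 0.17, adjusted p = 0.0202) and by 0.68 against siUHRF1 (adjusted p = 0.0450), and it was 0.58 lower with TSA alone (SE 0.17, adjusted p = 0.0804). The call against siCONT was lost without either siCONT array and without siUHRF1 + TSA replicate 1, and the call against siUHRF1 in 7 of 8 fits with 1 array left out, the exception being siUHRF1 + TSA replicate 2. Both calls were also lost with normexp (limma adjusted p = 0.0653 and 0.192). The dim probe A_24_P276102 read from -4.46 to -2.44, was not well above background on siCONT + TSA replicate 1 and siUHRF1 + TSA replicate 1, and passed in no comparison.

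RB1, the retinoblastoma protein itself, was read by 8 to 10 kept spots of probe A_23_P204850. It read 2.45 and 2.49 in siCONT, 2.40 and 2.54 in siUHRF1, 2.55 and 2.56 in siCONT + TSA, 1.95 and 2.39 in siUHRF1 + TSA and 2.27 with 5-aza-dC. Both siCONT + TSA arrays were above both siCONT arrays and both siUHRF1 + TSA arrays were below all other siRNA arrays, though siUHRF1-2 under TSA was only just below siUHRF1-1 under mock. RB1 was 0.39 lower with siUHRF1 + TSA than with siCONT + TSA (95% interval from -0.76 to -0.01, adjusted p = 0.273), and its interaction was -0.39 as well, with 95% limits that include 0. No comparison of RB1 passed.

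Calls of members in the remaining comparisons of the siRNA arrays are set here beside the shares of all probes. With TSA in UHRF1-depleted cells, 4 of the 15 probes passed, where 15.5% of all probes passed, 9.96% higher and 5.52% lower. Of these 4, E2F3 and E2F6 probe A_33_P3416301 were higher and E2F8 and RBL1 lower. Under TSA, UHRF1 depletion moved none of the 15 past limma's test, against 3.54% of all probes, although 3 had an unadjusted p below 0.05, 2 in the methods' t-test, and 1 passed Tukey's test. For the interaction, 0 passed in limma and 0 had an unadjusted p below 0.05, against 0.379% of all probes that passed.

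**Figure D3:**
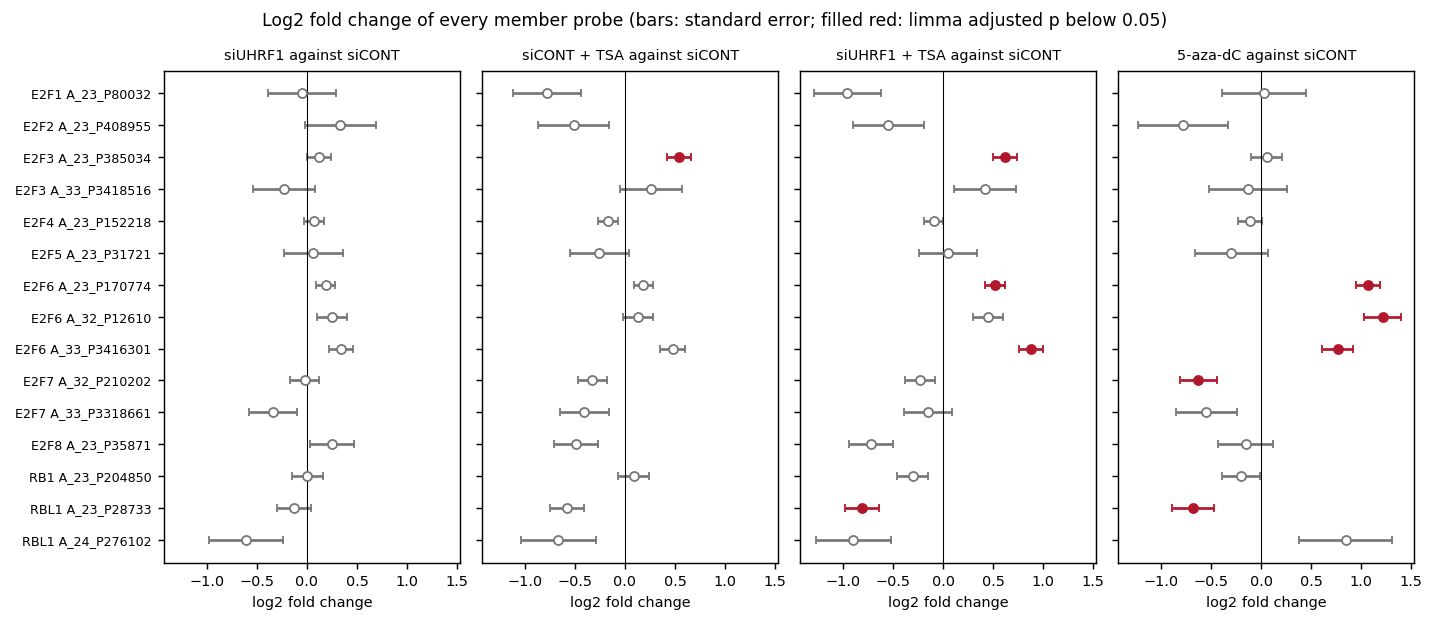
The log2 difference of each of the 15 member probes with its standard error from limma in siUHRF1, siCONT + TSA, siUHRF1 + TSA and 5-aza-dC, each against siCONT, with filled red points where the adjusted p was below 0.05. Error bars are wide for E2F1, E2F2 and the dim RBL1 probe A_24_P276102, and the 3 E2F6 probes lie above 0 in every panel.

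The siUHRF1 arrays differed from each other in most members, and in the same direction with and without TSA for several. For E2F1, siUHRF1-1 was below siUHRF1-2 by 0.65 without TSA and by 0.95 with it. For E2F2 the gaps were 0.48 and 1.12, for RBL1 0.31 and 0.41, and for E2F5 0.25 and 0.94, each with siUHRF1-1 the lower. E2F8 changed sides, with siUHRF1-1 higher by 0.31 without TSA and lower by 0.58 with it.

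E2F1 and E2F2 were the members with siUHRF1-1 lower by more than 0.4 in both settings, and no member was higher by that much in both. Over 23724 probes, 6.21% were lower and 4.11% higher by more than 0.4 in both settings. The median size of the gap over all probes was 0.26 in siUHRF1 and 0.19 in siUHRF1 + TSA, against 0.07 in siCONT and 0.08 in siCONT + TSA. With 1 array per siRNA and treatment, siRNA and array cannot be told apart.

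**Figure D4:**
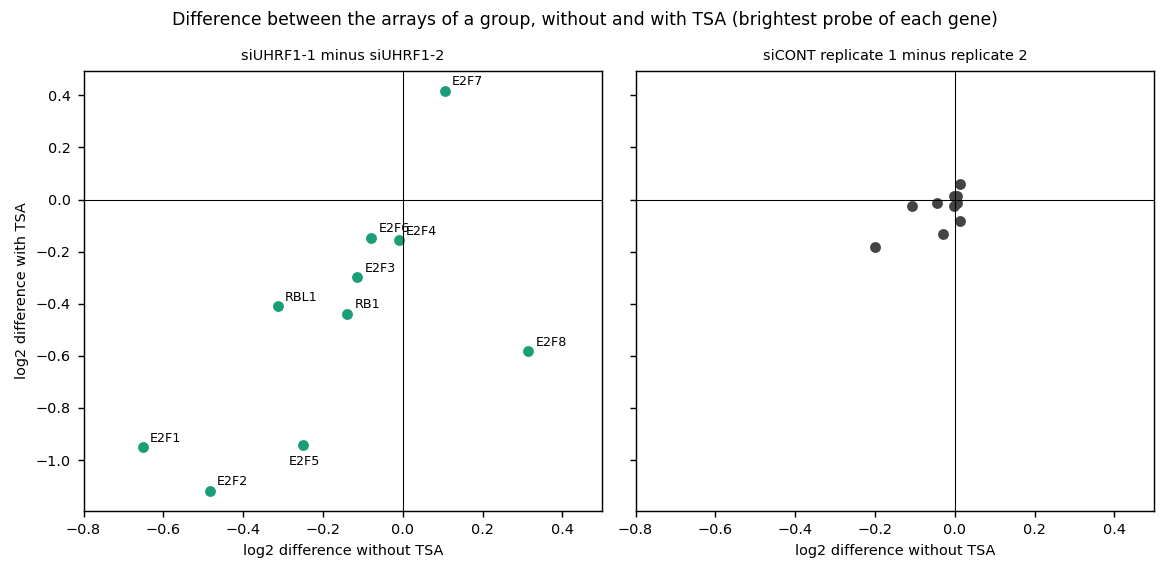
The log2 signal with siUHRF1-1 minus that with siUHRF1-2 for the brightest probe of each member, without TSA on the x axis and with TSA on the y axis (left), and the same for replicate 1 minus replicate 2 of the control siRNA (right). E2F1 and E2F2 lie farthest to the lower left, at -0.65 and -0.95 and at -0.48 and -1.12, whereas the control pairs lie near 0.

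As a description over the 8 siRNA arrays, which share treatments and siRNAs, E2F1 and RBL1 varied together (Pearson r = 0.97), as did E2F1 and E2F2 (0.94), while E2F3 ran against E2F7 (-0.88) and E2F6 ran with E2F3 (0.81). Among 11030 genes above background on all 8 arrays, the pair with the highest r was LIG1 (0.995) and NBAS (0.992) for RBL1, SLC44A1 (0.995) and TOM1L2 (0.995) for E2F1, and C4orf46 (0.990) and TYMS (0.980) for E2F2. LIG1 encodes a DNA ligase of replication and TYMS the thymidylate synthase. E2F6 ran most closely with ID2 (0.993) and MAGED2 (0.989), E2F3 with SLC29A4 (0.993) and TIGD1 (0.993), E2F8 with CEP70 (0.987) and TTC23 (0.980), and E2F7 with HSPA5 (0.987) and MRPS30 (0.973). For E2F4 these were COA5 (0.979) and PDE6D (0.975), for E2F5 HSF2 (0.976) and TNFRSF21 (0.944), and for RB1 SLC1A3 (0.974) and YME1L1 (0.969).

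Among the genes that E2F proteins are known to drive in S phase, calls between the siRNA groups were all lower. They were found where a group with TSA was compared with a group without it. Of 25 such genes, read by 30 tested probes, 0 probes passed with UHRF1 depletion alone (median -0.03), beside 0.556% of all probes. With TSA alone 9 fell (median -0.48), beside 3.95% of all probes that fell. With siUHRF1 + TSA against siCONT 19 fell (median -0.62), beside 8.24% of all probes that fell. None rose in any of these, and the medians over all probes were -0.00, 0.07 and 0.05 in the same order. With siUHRF1 + TSA against siCONT + TSA, 0 of the 30 probes passed (median -0.22), beside 3.54% of all probes. For the interaction 0 of them passed, beside 0.379% of all probes. CDC45, a part of the replicative helicase, fell by 1.37 with siUHRF1 + TSA (adjusted p = 0.00244), and the helicase subunits MCM6 and MCM4 by 1.14 (adjusted p = 0.00310) and 0.90 (adjusted p = 0.00341). With TSA alone they fell by 1.34 (CDC45), 0.77 (MCM6) and 0.74 (MCM4), with adjusted p between 0.0102 and 0.0213. The summed level of the list was 465 and 462 in siCONT, 359 and 352 in siCONT + TSA, 299 with siUHRF1-1 and 373 with siUHRF1-2 under TSA, in multiples of the 75th percentile. With 1 array left out, the count that fell ranged from 0 to 14 for TSA alone (0 without any 1 array of siCONT or siCONT + TSA, and 14 without either siUHRF1 + TSA array) and from 6 to 24 for siUHRF1 + TSA (7 and 6 without siCONT replicates 1 and 2). The summed mesenchymal markers were higher on the same TSA arrays and the summed epithelial markers on the siUHRF1 + TSA arrays, and the part of either in this was not tested.

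Of the cyclins and kinases that phosphorylate RB, 1 of 9 probes rose and 2 fell with siUHRF1 + TSA against siCONT, beside 15.0% of all probes that rose and 8.24% that fell. CCND3, a D-type cyclin, rose by 0.67 (adjusted p = 0.00805), and also with UHRF1 depletion alone, by 0.83 (adjusted p = 0.0379), while CDK2 fell by 0.66 (adjusted p = 0.0185), CDK6 fell by 0.79 (adjusted p = 0.0445), and CCNE2, an E-type cyclin, was 0.90 lower (adjusted p = 0.0525). Of the 7 probes for CDK inhibitors that were above background in siCONT, 2 rose and 1 fell, beside the same shares of all probes. CDKN1C rose by 1.22 (adjusted p = 0.00956) and CDKN2A by 0.92 (adjusted p = 0.0335), and CDKN1B fell by 0.42 on 1 of its 2 probes (adjusted p = 0.0224). CDKN2B was not well above background in siCONT and entered the test through siUHRF1 + TSA, where it was at least 1.90-fold higher, a bound set against the dimmest signal called above background on each array. With UHRF1 depletion alone and with TSA alone, none of the 7 inhibitor probes passed in limma.

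Of the DP partners, none of 3 probes passed with siUHRF1 + TSA, whereas TFDP2 rose with TSA alone by 0.45 (adjusted p = 0.0278). RBL2, a pocket protein like RBL1, was listed with the MuvB core that joins it in a repressor complex. Of these 11 probes, 2 fell with siUHRF1 + TSA and none rose, beside 8.24% of all probes that fell and 15.0% that rose. Those that fell were LIN9, by 0.65 (adjusted p = 0.0150), and LIN54, by 0.64 (adjusted p = 0.0206), both MuvB subunits. RBL2, named after its values were seen, was 0.36 lower (adjusted p = 0.177). Of the E2F6 partners in PRC1.6, 3 of 15 probes rose and none fell, beside 15.0% of all probes that rose, with CBX3, a heterochromatin protein, at 0.81 (adjusted p = 0.00973), WDR5 at 0.54 (adjusted p = 0.0150) and MGA, the scaffold of the complex, at 0.40 (adjusted p = 0.0318). Against siCONT + TSA, none of these 15 probes passed with siUHRF1 + TSA, beside 3.54% of all probes. None of the 11 probes of RBL2 and the MuvB core passed there either.

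**Figure D5:**
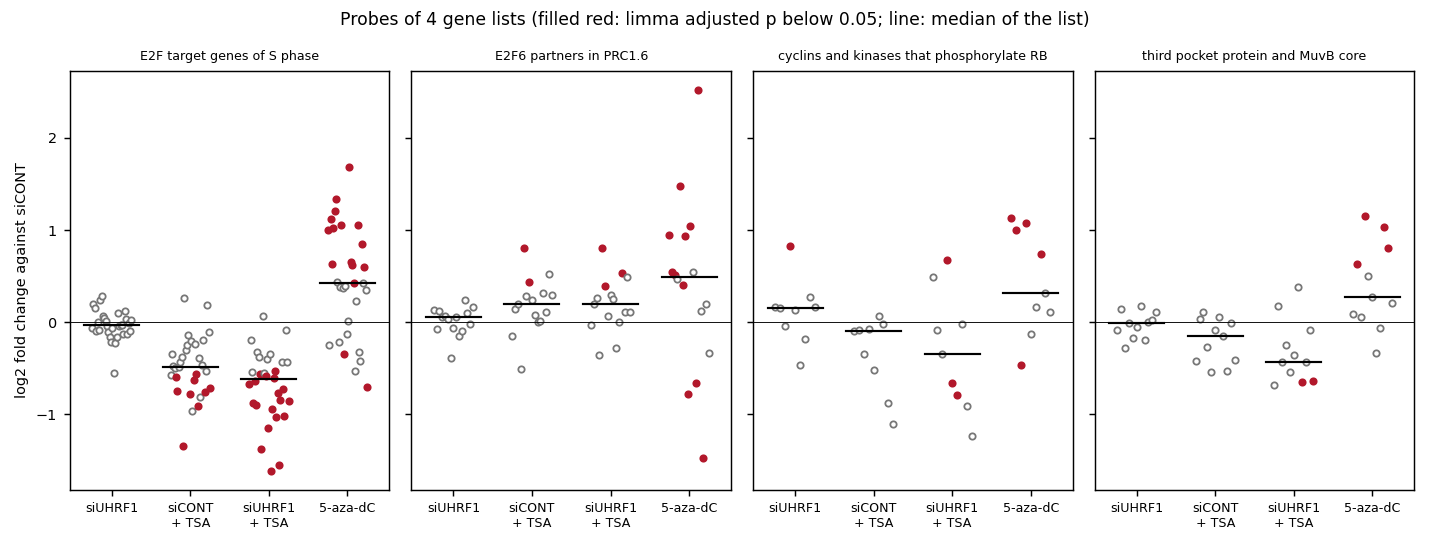
The log2 difference from siCONT of every tested probe of 4 pathway lists in siUHRF1, siCONT + TSA, siUHRF1 + TSA and 5-aza-dC, with 1 point per probe, filled red where limma's adjusted p was below 0.05, and a line at the median of the list. S-phase E2F targets lie mostly below 0 with TSA (medians -0.48 and -0.62) and mostly above 0 with 5-aza-dC (median 0.42), and the highest PRC1.6 point is a CBX3 probe not well above background in siCONT, drawn at its measured difference.

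Of 6 germline genes known to be repressed by E2F6, 3 were above background in siCONT, on 4 probes. With siUHRF1 + TSA against siCONT, 2 of these 4 probes rose and none fell (median 0.61), beside 15.0% of all probes that rose. STAG3, a cohesin subunit of meiosis, rose by 0.99 on 1 probe (adjusted p = 0.00526), and TUBA3D, a testis tubulin, rose by 0.76 (adjusted p = 0.0269). TUBA3C was 0.47 higher (adjusted p = 0.0717), and TUBA3C and TUBA3D are near-identical copies, so their probes cannot be assumed to separate them. Another STAG3 probe entered the test through siUHRF1 + TSA and was at least 1.88-fold higher there. With that probe counted, which was admitted through the group where it was high, 3 of 5 tested probes rose. Fewer of these 5 rose without any 1 array of siCONT, siCONT + TSA or siUHRF1 + TSA. With TSA alone STAG3 rose by 0.60 (adjusted p = 0.0437), and UHRF1 depletion alone moved none of the 4 probes past limma's test. With siUHRF1 + TSA against siCONT + TSA none of the 4 passed (median 0.35), beside 3.54% of all probes. E2F6 itself was higher on these siUHRF1 + TSA arrays than in siCONT.

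With 5-aza-dC, 5 of the 15 member probes passed against siCONT, the 3 of E2F6 higher and 1 each of E2F7 and RBL1 lower, where 24.1% of all probes passed higher and 24.8% lower. E2F6 rose by 1.07 (SE 0.12, adjusted p = 0.00098), 1.21 (SE 0.18, adjusted p = 0.00315) and 0.77 (SE 0.15, adjusted p = 0.00865) on its 3 probes. E2F7 fell by 0.62 (SE 0.18, adjusted p = 0.0341) and RBL1 by 0.68 (SE 0.21, adjusted p = 0.0404), while the dim RBL1 probe was 0.84 higher (adjusted p = 0.185). E2F1 differed by 0.03, with a 95% interval from -1.01 to 1.07. The fit assumes that the lone 5-aza-dC array varies like the other groups, and treatment, the lack of an siRNA, slide and scan cannot be told apart here. The E2F7 and RBL1 calls were lost without either siCONT or either siCONT + TSA array.

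The direction of the E2F6 result with 5-aza-dC depends on the scale. With arrays scaled on the spike-in probes, the median of all probes moved from 0.01 to -1.68 and the E2F6 differences turned to -0.63, -0.48 and -0.93, which still lie above that median. Relative to the 75th percentile, 14 of 30 S-phase target probes rose with 5-aza-dC and 2 fell (median 0.42), beside 24.1% of all probes that rose and 24.8% that fell. None of the 30 rose on the spike-in scale, where 7.9% of the calls over all probes were higher. Of the 4 germline probes above background in siCONT, 3 rose relative to the 75th percentile, beside 24.1% of all probes. They were TUBA3D by 6.01 (adjusted p = 1.52e-05), STAG3 by 2.42 (adjusted p = 0.000169) and TUBA3C by 2.16 (adjusted p = 0.000414). CDKN2A rose by 4.24 (adjusted p = 0.00015), and VIM, a mesenchymal marker, by 6.07 (adjusted p = 5.07e-06). The summed mesenchymal level was 51.9 on this array against 0.94 and 1.01 in siCONT, and its part in the members' values was not tested.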

How the data were processed

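Total RNA from RKO cells was labelled with Cy3 and hybridised to Agilent SurePrint G3 Human GE v2 arrays by the authors, who deposited the scanner intensity of each spot from Agilent Feature Extraction (10.7 per the labels, 10.7.3.1 per the file headers), background-subtracted and not normalised between arrays. The deposited values by probe are the same intensities rounded, within 0.497%. Each of the 9 arrays had 62976 spots, 4259 of them controls, which were left out with outlier spots. The log2 of the processed intensity minus the array's 75th percentile was averaged per probe. Probes with a signal above background on each array of 1 or more groups were tested with limma (3.58.1, R 4.3.3, with the data.table package at version 1.17.8), on the 8 siRNA arrays together or all 9 for 5-aza-dC, with Benjamini-Hochberg adjustment over all probes and a call at an adjusted p below 0.05. Scripts were tested on simulated data. Promoters and figures were handled in Python 3.11.15. The number of arrays limits the precision, and 43.6 to 46.6% of probes were above background on the siRNA arrays.

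Named were all members, UHRF1, up to 4 genes per pathway list by lowest p in siUHRF1 + TSA against siCONT, and each member's 2 most correlated genes. RBL2 and the marker genes were named besides. One gene that this rule names is not reported here. Where 1 probe stands for a gene it is the brightest. The members and lists were chosen with earlier results of these data known. Alternatives were normexp background correction (offset 50), quantile, median and spike-in scaling, other filters, the authors' rounded values, outlier spots kept, a replicate block, trended variances, fits to the groups compared, limma's unadjusted p alone and joined to a change over 2-fold, the study's t-test, Tukey's test and leaving out each array. Slide and scan gave no block to fit, since the siRNA arrays shared 1 of each.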

Additional observations from a re-analysis of the deposited data

How the results depend on the processing

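Of 299 pairs of a called member value and an alternative setting, 205 kept their direction and call, 91 kept their direction and lost the call, and 3 reversed, all of them E2F6 with 5-aza-dC under spike-in scaling (-0.63, adjusted p = 0.0209; -0.48, adjusted p = 0.219; -0.93, adjusted p = 0.00233). The number of member probes called was 0 for siUHRF1 and became 1 by unadjusted p and 2 by the methods' t-test. For siCONT + TSA it was 1 and became 0 with normexp, quantile normalisation, no filter, the replicate block or unadjusted p joined to a 2-fold minimum, 2 with the stricter filter or Tukey's test, 3 by unadjusted p, 4 with the block within siRNA, 5 and 7 by the methods' t-test with and without adjustment, and 10 with only the groups compared. For siUHRF1 + TSA against siCONT it was 4 and became 0 with normexp, unadjusted p joined to a 2-fold minimum or the adjusted t-test, and 7 by unadjusted p. Against siCONT + TSA it was 0 and became 3 by unadjusted p, 2 by the t-test and 1 by Tukey's test. Against siUHRF1 it was 4 and became 0 with normexp, no filter, only the groups compared, unadjusted p joined to a 2-fold minimum or either t-test, 1 with spike-in scaling and 7 by unadjusted p. For 5-aza-dC it was 5 and became 3 with normexp or median scaling, 13 with spike-in scaling, 9 with only the groups compared and 2 with unadjusted p joined to a 2-fold minimum. Where no value or the setting's own construction shows it, the cause was not tested.

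Leaving out 1 array gave 0 to 2 calls for siCONT + TSA (0 without either siCONT or either siCONT + TSA array), 1 to 8 for siUHRF1 + TSA against siCONT (1 without either siCONT array, and 8 without siUHRF1 + TSA replicate 2, which added E2F1 at -1.43, E2F2 at -1.10, E2F8 at -1.01 and RB1 at -0.52), 0 to 4 against siUHRF1 (0 without either siCONT array, siUHRF1 replicate 1 or either siCONT + TSA array, and 1 without siUHRF1 + TSA replicate 1) and 3 to 6 for 5-aza-dC (3 without either siCONT or either siCONT + TSA array). Same-numbered arrays deviated together between siUHRF1 and siUHRF1 + TSA (r = 0.47), which share siRNAs, but not across all groups (-0.05 to 0.08 elsewhere). Such correlations cannot tell whether same-numbered arrays came from paired cultures. The main fit had no block for the siRNA that the siUHRF1 and siUHRF1 + TSA arrays share. With the replicate block, E2F3 under TSA had an adjusted p of 0.0509, and the other 13 called values kept their call. With the block within siRNA, which fits the arrays that share an siRNA, the count for siUHRF1 + TSA against siUHRF1 went from 4 to 6, while E2F8 lost its call there (adjusted p = 0.0602).

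Over all probes, 132, 2469, 5513, 839, 3672 and 13281 were called in the 6 comparisons in the order above, and 9, 420, 1693, 92, 799 and 9867 with normexp. The difference between the effects of depletion went from 90 to 6. Spike-in scaling gave 871 for siCONT + TSA, 3370 for siUHRF1 + TSA against siCONT, 1845 against siUHRF1 and 23232 for 5-aza-dC. The share of calls that were higher went from 62.1 to 34.3% for siCONT + TSA, from 64.5 to 50.2% for siUHRF1 + TSA, and from 49.4 to 7.9% for 5-aza-dC. Dim probes near background have the least certain values.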
